A study of Mus musculus with 16 samples.

Results

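The Hox cluster genes are the homeobox genes of the Hoxa, Hoxb, Hoxc and Hoxd clusters. They were taken as every gene whose symbol joins Hox, a cluster letter from a to d and a position number, and which had a probe set naming that gene alone. Where a gene had several such probe sets, the one with the highest mean log2 intensity over the 16 arrays stood for it. This gave 33 Hox genes among the 18193 genes measured: 9 of Hoxa, 9 of Hoxb, 7 of Hoxc and 8 of Hoxd. The RefSeq mouse annotation lists 39, and the others were not analysed here.

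The arrays came from mouse embryonic stem (ES) cells, pluripotent cells of the early embryo, on a 129/B6 hybrid background. Clones 10 and 15 were given 4-hydroxytamoxifen (OHT) at 800 nM for 24 hours so as to remove Rybp, and the labels do not describe the allele or the recombinase. Rybp is a subunit of the Polycomb repressive complex PRC1. The series set treated cells, here called KO, beside untreated cells of the same clones, here called control, at day 4 and at day 12. Each of the 4 groups held 4 arrays, 2 from either clone, and the clones' arrays were numbered 1 and 2. The control cells had no OHT at all, so an effect of the drug itself cannot be told apart from that of losing Rybp. Cultures were kept on irradiated mouse embryonic fibroblasts or on gelatin, and the labels do not assign arrays to either. Whether arrays of a clone and group were separate cultures is not stated, so the p-values cover the spread of these arrays alone, and that spread may be technical.

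Hox proteins are DNA-binding transcription factors that give cells of the embryo their position along the head-to-tail axis. Within a cluster the genes with low position numbers act in anterior tissue and those with high numbers in posterior tissue and limbs, and they switch on in that order during development. In ES cells the clusters are textbook targets of Polycomb complexes, which keep them silent until differentiation begins.

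The targeted gene was low in the treated cells: the main Rybp probe set lay between 2047 and 3434 on the 8 control arrays and between 84.9 and 256 on the 8 KO arrays. Both Rybp probe sets also match a pseudogene, and the other one was higher in KO cells, from a mean of 1363 ± 1282 to 6002 ± 1840 at day 4 (SD, n = 4). All 8 ES cell markers listed, Pou5f1, Nanog and Sox2 among them, were above the array median on all 16 arrays. The deposited intensities are linear. Their median over all 45101 probe sets and all 16 arrays pooled, 93.3, is the value here called the array median. A floor was set at the 25th percentile of the same pooled intensities, 28.3, and a value under the floor is treated as too dim to carry a size. No detection calls were used, so a value under the floor is not a statement of absence.

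The Hox genes as a family were dim in every group. On single arrays 12 to 20 of the 33 genes lay above the floor, whereas 80.7% to 82.6% of all genes did. Between 2 and 7 Hox genes lay above the pooled array median of 93.3 on any array, and 59.5% to 62.6% of all genes did. The median Hox intensity per array ran from 19.6 to 39.1, and that of all genes from 169 to 206. Only 1 of 33 Hox genes, 3.03%, was above the median on all 16 arrays, compared with 9324 of 18193 genes, 51.3%. Genes above the array median on 0 arrays made up 69.7% of the Hox genes and 26.3% of all genes. Hoxa7 and Hoxd12 never exceeded the floor, and 17 of the 33 genes exceeded it on fewer than 8 arrays.

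**Figure D1:**
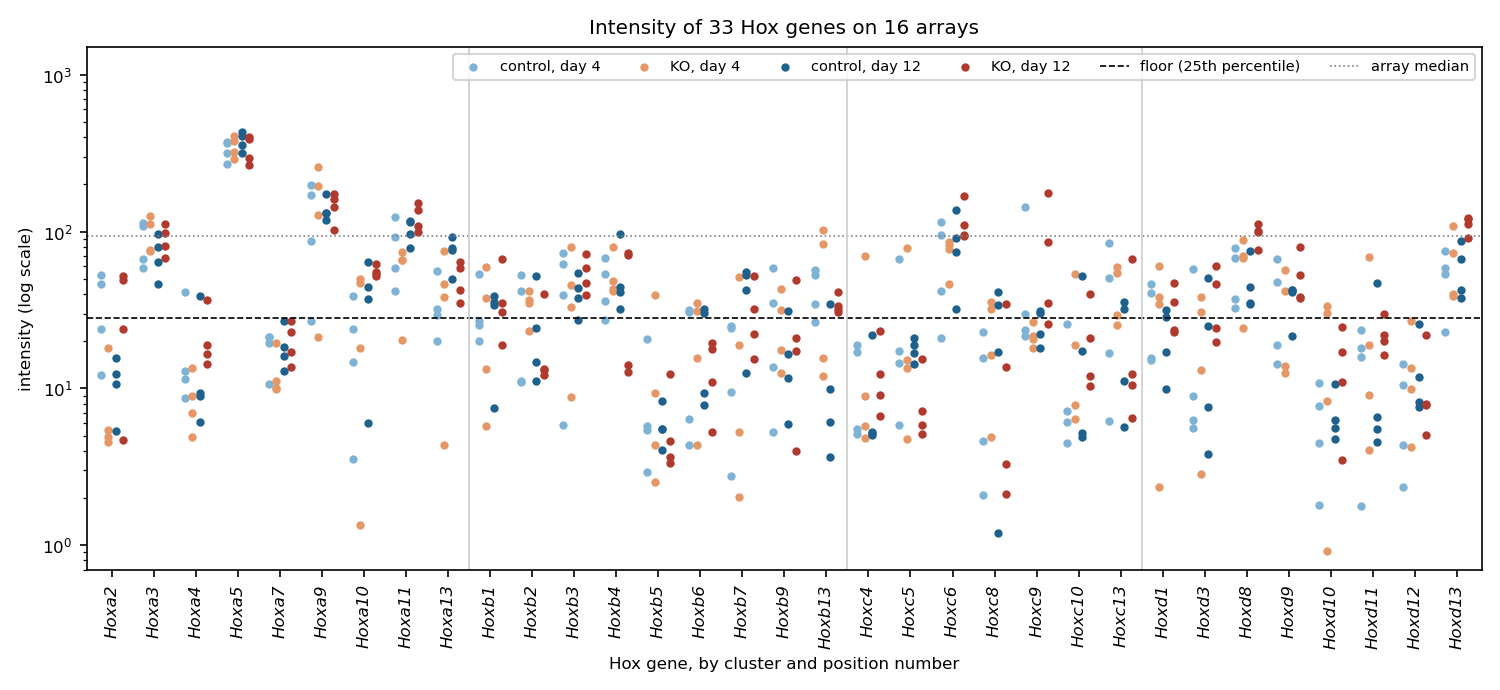
Linear intensity on a log axis of each of the 33 Hox genes, ordered by cluster and position number, with 1 point per array coloured by group. Most points lie around or under the dashed floor at 28.3, and Hoxa5 is the single gene with all 16 points above the dotted array median at 93.3.

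By cluster, the share of array values above the floor was 61.1% of control and 52.8% of KO values for Hoxa at day 4, and 66.7% and 75.0% at day 12. For Hoxc it was 28.6%, 42.9%, 39.3% and 35.7% in the same order. Hoxb lay between 44.4% and 55.6%, and Hoxd between 37.5% and 53.1%. By position, the shares reached 64.3% at most for numbers 1 to 3, 50% for numbers 4 to 8 and 62.5% for numbers 9 to 13. Probe sets differ in how brightly they report a transcript, so these shares describe the probe sets and do not rank the clusters by RNA.

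Hoxa5, a gene of cervical and lung development, had the highest values. Its clone 10 arrays read 268 and 315 in control and 291 and 319 in KO cells at day 4, and its clone 15 arrays 374 and 368 in control and 406 and 378 in KO cells. At day 12 clone 10 read 428 and 315 in control and 292 and 265 in KO cells, and clone 15 read 405 and 354 in control and 402 and 391 in KO cells. The groups overlapped at both days, and the KO minus control difference was 0.07 ± 0.13 on the log2 scale (SE) at day 4 and -0.17 ± 0.13 at day 12. These levels rest on 1 probe set with the suffix x, which marks probes that can match further transcripts. The other Hoxa5 probe set read 4.54 to 76.4, with a median of 11.8, and exceeded the floor on 6 arrays.

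Hoxa9, a regulator of blood progenitors that is also known from leukaemia, was above the array median on 13 arrays. At day 4 the control arrays read 86.5, 170, 26.9 and 197 (clone 10 replicates 1 and 2, then clone 15 replicates 1 and 2), and the KO arrays of the same order read 128, 194, 21.3 and 259. The array of clone 15 replicate 1 was the lowest in both groups, and the remaining arrays also kept their order between control and KO cells. At day 12 control cells read 119 to 175 and KO cells 102 to 174. The differences were 0.20 ± 0.71 and 0.05 ± 0.71.

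Hoxa11, which acts in limb and kidney, was above the median on 8 arrays and averaged 79.2 ± 36.5 and 56.6 ± 24.4 in control and KO cells at day 4, and 102 ± 18.2 and 124 ± 24.8 at day 12 (SD, n = 4). Hoxa3, a gene of the pharyngeal organs, stayed above the floor on all 16 arrays, between 46.6 and 126. Hoxc6, a gene of the thoracic region, ran from 21.0 to 168 and was above the median on 7 arrays. Hoxb4, known from blood stem cells, ran from 12.7 to 96.6. Hoxb3, a gene of the hindbrain, ran from 5.88 to 79.9, and Hoxa13, a gene of digits and urogenital tract, from 4.38 to 92.8. In each of these 6 genes the control and KO arrays overlapped at both days. Hoxa13 at day 12 was the lower in KO cells in all 4 pairs of clone and number, at 76.6, 49.8, 92.8 and 78.9 in control and 63.9, 42.6, 58.4 and 34.9 in KO cells, a difference of -0.58 ± 0.68 on the log2 scale (SE) with an adjusted p of 0.769 in limma.

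A gene's level depended strongly on which probe set was read. The 33 genes had 48 probe sets of their own, and 11 genes had more than 1. Hoxa9 read a median of 138 on the probe set used and 16.0 on the other, and Hoxa3 read 80.2 on the one used and 14.0, 21.4 and 47.8 on the others. For Hoxc6 the probe set used had a median of 88.3, another with the suffix x had 91.4 and the last had 32.8. Of the genes not in the list, Hoxd4 shared 2 probe sets with Hoxd3, with medians of 58.4 and 5.0, and Hoxb8 shared 1 with Hoxb7, with a median of 29.5. Those 3 name both genes and were not assigned to either.

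**Figure D2:**
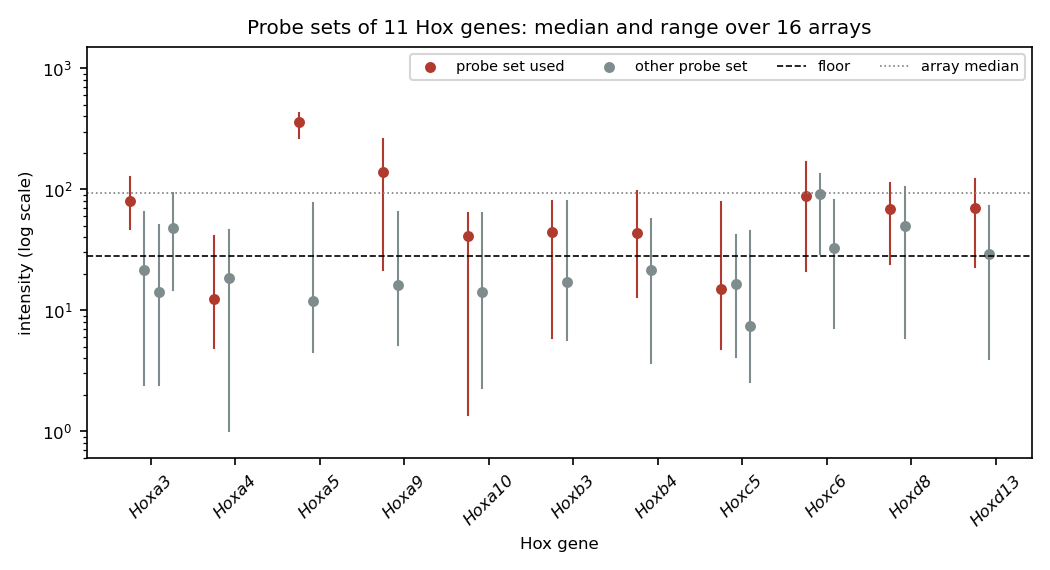
Median (point) and range over 16 arrays (line) of the linear intensity, on a log axis, of each probe set of the 11 Hox genes that had several. The probe set used is red, and the others are grey. Hoxa5 has a median of 361 on the set used and 11.8 on the other.

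The promoters of the genes discussed are printed to show how different the sequences of this family's starts are. The RefSeq promoter table (build GRCm38.p6) holds 300 bases per start, from 250 before to 50 after it, and matched 19 of the 33 genes with 21 starts. The following were chosen after the values were seen: Hoxa5 because it had the highest intensity, and Hoxd8 and Hoxd13 because their KO arrays at day 12 all lay above the control arrays. Each is written 5′ to 3′ on the gene's own strand, with every CpG in capitals.
Hoxa5: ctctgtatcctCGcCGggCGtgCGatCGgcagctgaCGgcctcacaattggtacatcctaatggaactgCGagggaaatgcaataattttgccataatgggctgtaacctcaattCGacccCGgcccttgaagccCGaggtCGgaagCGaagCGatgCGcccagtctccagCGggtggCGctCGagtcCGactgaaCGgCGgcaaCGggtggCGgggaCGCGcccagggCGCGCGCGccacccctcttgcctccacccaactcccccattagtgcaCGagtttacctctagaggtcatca
Hoxd13: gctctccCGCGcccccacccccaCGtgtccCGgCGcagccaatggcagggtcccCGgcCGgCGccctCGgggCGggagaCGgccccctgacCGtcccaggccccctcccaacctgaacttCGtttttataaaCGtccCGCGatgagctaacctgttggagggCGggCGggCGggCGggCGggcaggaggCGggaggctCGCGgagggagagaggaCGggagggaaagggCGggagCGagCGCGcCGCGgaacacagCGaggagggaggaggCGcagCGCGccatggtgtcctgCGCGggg
Hoxd8: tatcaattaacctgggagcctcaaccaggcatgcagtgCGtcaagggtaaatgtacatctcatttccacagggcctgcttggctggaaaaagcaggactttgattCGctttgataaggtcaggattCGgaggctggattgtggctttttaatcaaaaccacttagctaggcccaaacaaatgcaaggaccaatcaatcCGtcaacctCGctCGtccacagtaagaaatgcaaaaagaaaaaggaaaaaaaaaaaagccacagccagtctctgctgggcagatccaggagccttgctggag

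The Hoxa5 promoter lies on the minus strand at chr6:52204538-52204837 and holds 29 CpG at a GC content of 61.7%. The Hoxd13 promoter lies on the plus strand at chr2:74667975-74668274 and holds 37 CpG at 74.3% GC. The Hoxd8 promoter lies on the plus strand at chr2:74704365-74704664 and holds 6 CpG at 46.7% GC. The Hoxd8 window thus held few CpG and the Hoxd13 window many.

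Over the 21 Hox starts the median was 15 CpG and 58.0% GC, and over all 32851 promoters of the table it was 7 CpG and 52.7% GC. Windows of at least 50% GC with an observed to expected CpG ratio of at least 0.6 made up 47.6% of the Hox starts and 33.5% of all promoters. The motif GCCATNTT, the core bound by Yy1, a transcription factor that binds Rybp, was searched on both strands and was present in 1 Hox start, 4.76%, and in 6.05% of all promoters. CACGTG, the E-box read by the Max partners of variant PRC1, was present in 4 Hox starts, 19.0%, and in 7.15% of all. The Hoxd13 window held 1 CACGTG, and none of the 3 windows printed held GCCATNTT. A match is a description of letters and does not show binding.

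At day 4 no Hox gene passed the test between KO and control cells: 0 of 33 were past an adjusted p of 0.05 in limma, where 0.621% of all genes were. At an unadjusted p under 0.05 there was 1 Hox gene, and 8.53% of all genes. The KO arrays were all above the control arrays for 0 Hox genes and all below for 0, and 3.48% and 2.01% of all genes were separated in these directions. The median Hox difference was 0.19 on the log2 scale, with 21 genes above 0 and 12 below, and the median of all genes was 0.01. Above 0 were 63.6% of the Hox genes and 51.7% of all genes. With values under the floor raised to it, the Hox median was 0.12 and that of all genes 0. On that scale 21 Hox genes were above 0 and 10 below, and 49.1% of all genes were above 0. These directions were not tested.

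Hoxa2, which patterns the hindbrain and branchial arches, was the gene with the unadjusted p at day 4. Control arrays read 12.2, 46.3, 53.1 and 23.9 (clone 10, then clone 15), and KO arrays 5.40, 4.53, 18 and 4.88. The KO value was the lower in all 4 pairs of clone and number, but the groups overlapped, and all 4 KO arrays were under the floor. The difference was -2.10 ± 0.69 on the log2 scale (SE), with an adjusted p of 0.299 in limma, and with the floor it was -0.41. Hoxc9, a gene of the thoracic axis, averaged 54.7 ± 59.4 in control and 21.7 ± 3.56 in KO cells (SD, n = 4), and 1 control array of 144 set that control mean, the others reading 21.6 to 29.9.

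At day 12 again 0 of 33 Hox genes were past the adjusted threshold in limma, where 3.09% of all genes were. At an unadjusted p under 0.05 there were 3 Hox genes, 9.09%, and 14.8% of all genes. The KO arrays lay above all control arrays for 2 Hox genes, Hoxd8 and Hoxd13, which is 6.06% of the family, and for 7.4% of all genes. They lay below all control arrays for 0 Hox genes and for 4.66% of all genes. The shares of the family were thus no larger than those of the genes at large. The median Hox difference was 0.42, with 22 genes above 0 and 11 below, and the median of all genes was 0.01. Above 0 were 66.7% of the Hox genes and 51.6% of all genes. With the floor the Hox median was 0.05 and that of all genes 0, so most of the Hox median came from values under the floor. On that scale 17 Hox genes, 51.5%, were above 0 and 10 below, and 49.1% of all genes were above 0. Here too the directions were not tested.

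Hoxd8, a gene of the trunk, read 44.1, 34.8, 34.6 and 74.8 in control cells and 76.8, 101, 112 and 99.7 in KO cells at day 12. All 4 KO arrays were above all control arrays, by a narrow margin between the highest control and the lowest KO array. The means were 47.1 ± 19.0 and 97.5 ± 14.9 (SD, n = 4), the difference was 1.11 ± 0.40 on the log2 scale (SE), and its 95% interval ran from 0.24 to 1.99. The adjusted p was 0.201 in limma, the lowest of the 33 genes. The clones gave 1.17 and 1.06 on their own. At day 4 the same gene read 37.2, 78.3, 67.8 and 32.7 in control and 87.7, 24.1, 68.3 and 69.4 in KO cells, with full overlap. The other Hoxd8 probe set, above the floor on 12 arrays, gave 0.65 ± 0.92 at day 12.

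Hoxd13, which shapes digits and genitalia, read 67.2, 42.3, 37.4 and 87.5 in control cells at day 12 and 112, 122, 90.5 and 120 in KO cells. Here too the KO arrays all lay above the control arrays, with 87.5 and 90.5 next to each other. The means were 58.6 ± 23.2 and 111 ± 14.4, the difference was 1.0 ± 0.41, and its 95% interval ran from 0.11 to 1.89, with an adjusted p of 0.263 in limma. The clones gave 1.13 and 0.87 on their own, and the other Hoxd13 probe set, which exceeded the floor on 8 of 16 arrays, gave 2.19 ± 0.81. At day 4 the difference was 0.30 ± 0.41.

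Hoxb13, a gene of tail and prostate that is outside the rule for named genes and was picked after its values were seen, also had an unadjusted p under 0.05 at day 12. Control arrays read 3.66, 6.13, 9.89 and 34.5, and KO arrays 30.6, 40.9, 32.0 and 33.5. The difference of 1.86 ± 0.75 shrank to 0.19 with the floor, because 3 of the control arrays lay under the floor and the KO arrays only just above it. Its adjusted p was 0.252 in limma.

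The Hoxc9 values in KO cells at day 12 differed by clone. Control arrays read 31.1, 18, 22.1 and 30.1, and KO arrays 175 and 86.4 in clone 10 but 25.6 and 35.1 in clone 15. The KO array was the higher in all 4 pairs, and the KO arrays of clone 15 overlapped the control arrays. The difference was 1.30 ± 0.64 over both clones, with an adjusted p of 0.378 in limma, 2.38 in clone 10 alone and 0.21 in clone 15 alone. Hoxa2 values lay the other way, with KO arrays of 4.66 and 23.9 in clone 10 and 52.3 and 49.2 in clone 15 beside control arrays of 5.32 to 15.5. Each clone had 2 KO arrays at this day, and a clone difference at day 12 alone was not tested for either gene.

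**Figure D3:**
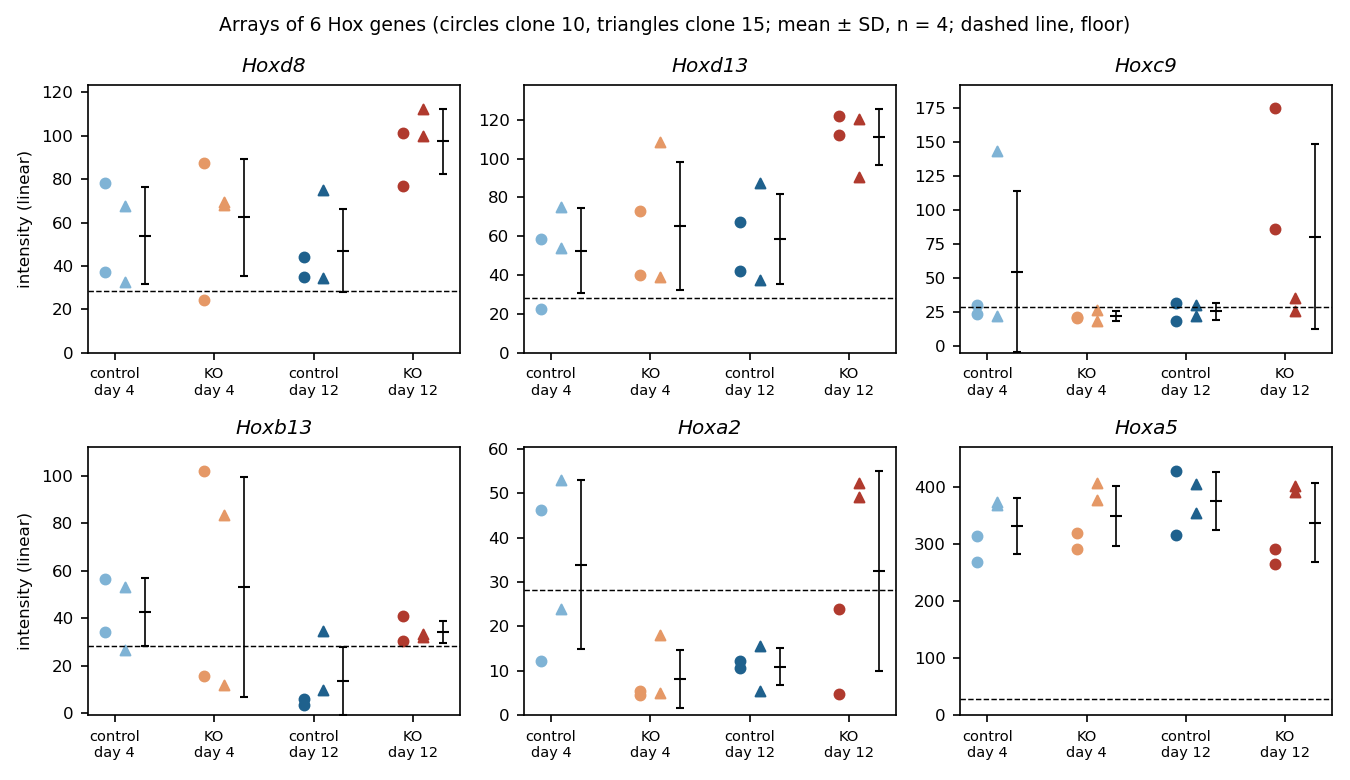
Linear intensity of 6 Hox genes by group, with 1 point per array (circles clone 10, triangles clone 15), a bar for the mean ± SD of 4 arrays and a dashed line at the floor of 28.3. The 4 KO arrays at day 12 are above the control arrays for Hoxd8 and Hoxd13, while for Hoxc9 only the clone 10 arrays stand out, at 175 and 86.4.

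At day 12 the median difference was 0.28 for Hoxa, -0.14 for Hoxb, 0.54 for Hoxc and 0.89 for Hoxd. Above 0 were 7 of 8 Hoxd genes, beside 51.6% of all genes. With the floor these medians were 0.05, 0, 0 and 0.23. By position the medians at day 12 were 0.48 for numbers 1 to 3, -0.15 for numbers 4 to 8 and 0.51 for numbers 9 to 13, and 0.24, -0.01 and 0.17 with the floor. At day 4 the cluster medians were -0.21, 0.23, 0.35 and 0.30, in the order a to d, and 0.07, 0.12, 0.13 and 0.12 with the floor, so that of Hoxa changed sign. The position medians at day 4 were 0.01, 0.19 and 0.23, and -0.06, 0.12 and 0.15 with the floor. None of these medians was tested.

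**Figure D4:**
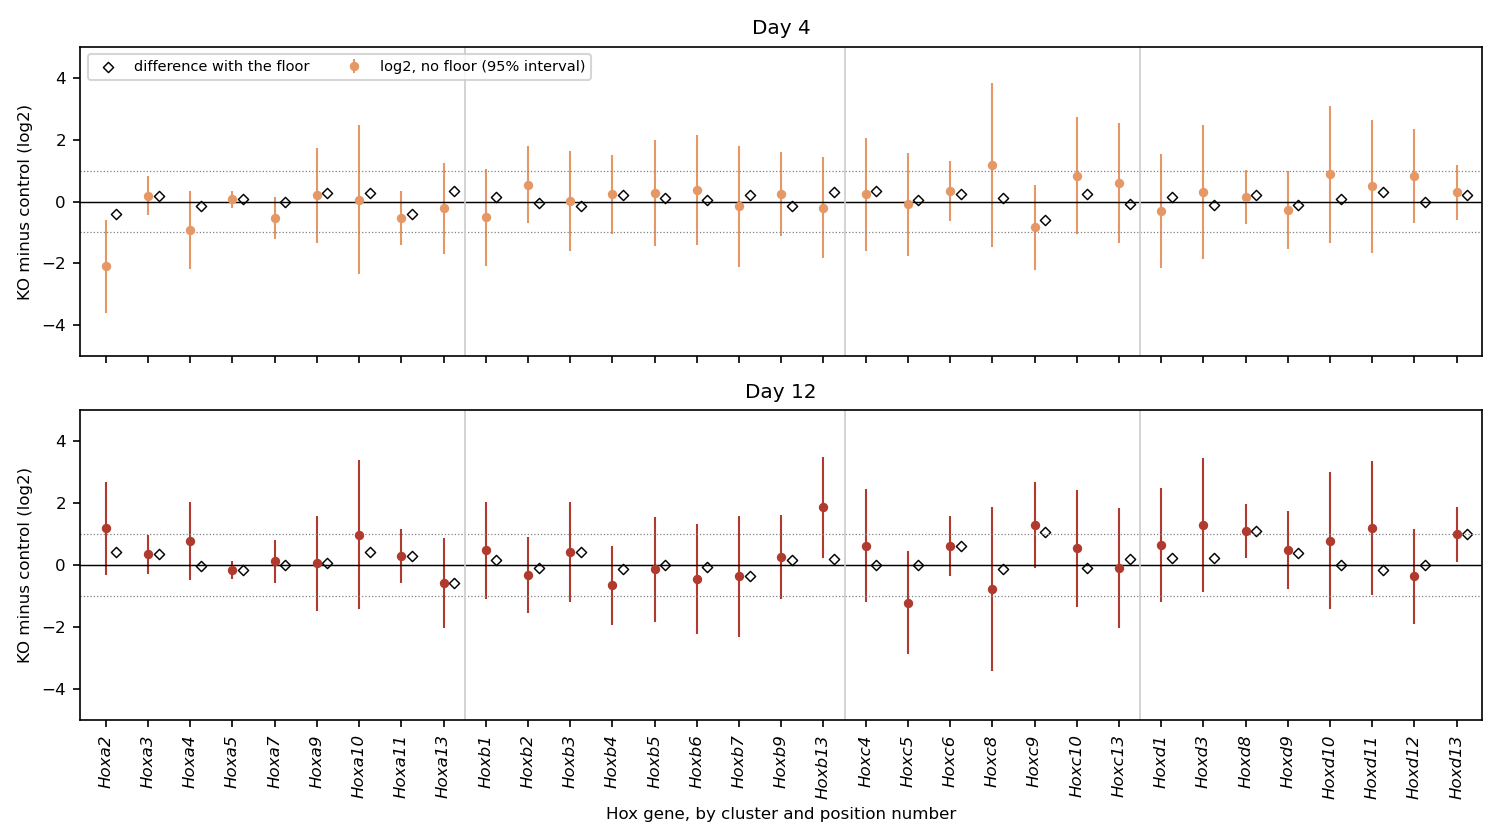
KO minus control difference on the log2 scale for each Hox gene at day 4 (top) and day 12 (bottom): filled points with 95% intervals are the limma estimates, and open diamonds the differences of group means with values under the floor raised to it. Dotted lines mark 2-fold. The diamonds lie close to 0 for most genes, and at day 12 those of Hoxd8, Hoxc9 and Hoxd13 are the highest.

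The precision limits what these differences can exclude. The median SE of a Hox difference was 0.71 on the log2 scale, compared with 0.28 for all genes. Within a clone and group, the SD over arrays had a median of 1.02 for Hox genes, 0.43 for all genes, 0.99 for the 5820 genes of a like mean and 0.24 for genes with a mean log2 above 8. The 95% interval stayed within 2-fold either way for 2 Hox genes at day 4 and 3 at day 12. It reached a 2-fold rise for 25 and 26 of the 33 genes, and a 4-fold rise for 10 and 13. With the floor, 22 of 31 genes at day 4 and 19 of 31 at day 12 had intervals within 2-fold, Hoxa7 and Hoxd12 being under the floor throughout. A missed threshold therefore does not show that a Hox gene was equal in both groups.

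Whether the KO difference itself changed between the days was tested as an interaction. No Hox gene passed in limma, 0 of 33, and 0% of all genes did. At an unadjusted p under 0.05 there were 2, Hoxa2 at 3.28 ± 0.97 and Hoxc9 at 2.13 ± 0.91, beside 4.57% of all genes. With the floor these were 0.83 and 1.69, and all 4 KO arrays of either gene at day 4 lay under it. Comparing untreated cells at day 12 with those at day 4, 0 Hox genes and 0.995% of all genes passed in limma, and 2 Hox genes, Hoxb13 at -2.12 ± 0.75 and Hoxa2 at -1.52 ± 0.69, and 13.9% of all genes had an unadjusted p under 0.05. Raising dim values to the floor left -0.47 for Hoxb13 and -0.41 for Hoxa2, whose control arrays at day 12 were above it on 1 and 0 of 4 arrays. Hoxa13 averaged 34.4 ± 15.3 in control cells at day 4 and 74.5 ± 18 at day 12, and Hoxb7, a gene of the thoracic axis, 15.3 ± 11 and 40.7 ± 19.5 (SD, n = 4). Their differences were 1.18 ± 0.68 and 1.65 ± 0.90 on the log2 scale (SE), with adjusted p of 0.48 and 0.457 in limma, and 1.06 and 0.61 with the floor. The Hoxa13 groups overlapped, and all 4 control arrays of Hoxb7 at day 4 lay under the floor. These comparisons share control arrays with those above.

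Among KO cells, day 12 against day 4 again gave 0 Hox genes past the limma threshold, with 3.27% of all genes past it. Hoxa11, Hoxa2, Hoxc9, Hoxa4 and Hoxd13, 5 genes, had an unadjusted p under 0.05, as did 15.8% of all genes. Hoxa11 had the lowest adjusted p, 0.118 in limma, at 1.27 ± 0.40. It read 66.0, 74.3, 20.5 and 65.4 at day 4 and 152, 99, 138 and 108 at day 12, which do not overlap. Hoxa4, Hoxa10, Hoxa11 and Hoxc6, 4 of 33 genes or 12.1%, had all day 12 KO arrays above all day 4 KO arrays, as did 6.94% of all genes, and 0 had them below, where 4.49% of all genes did. The day 12 KO values of Hoxa4 were 14.3 to 36.7, with 1 of 4 above the floor.

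Between the untreated clones, 0 Hox genes and 0.0605% of all genes passed in limma. Hoxc6, Hoxb6 and Hoxb9, 3 genes, had an unadjusted p under 0.05, beside 5.21% of all genes. Hoxc6 read 90.3 to 136 on the untreated arrays of clone 10 and 21.0, 41.9, 32.0 and 74.0 on those of clone 15, with no overlap. The difference, clone 15 minus clone 10, was -1.5 ± 0.35 on the log2 scale (SE). Its adjusted p was 0.37 in limma. Hoxb6 lay the other way: clone 15 read 30.2 to 32.0 on all its untreated arrays, just above the floor, and clone 10 read 4.35 to 9.28, all under it, so no size is given. All 4 untreated clone 15 arrays were below those of clone 10 for Hoxc6, Hoxb9 and Hoxd10, 3 genes or 9.09%, and for 1.26% of all genes, and above them for Hoxb6 alone, 3.03%, and for 1.55% of all genes. Of these 4 genes, Hoxc6 alone was mostly above the floor: every untreated Hoxd10 value in both clones and every untreated clone 15 value of Hoxb9 lay under it. When the clones' KO effects were set against each other, 0 Hox genes and 0% of all genes passed in limma, and 3 Hox genes, Hoxb6, Hoxb5 and Hoxc6, had an unadjusted p under 0.05, beside 3.21% of all genes.

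Of 26 listed genes beside or inside the clusters, among them Hoxb13 itself, 16, or 61.5%, were above the array median on all 16 arrays, beside 51.3% of all genes and 3.03% of the Hox genes. Mtx2 and Lnpk beside Hoxd, Skap2 and Snx10 near Hoxa and Cbx1 and Nfe2l1 near Hoxb were among them. The 3 antisense genes measured inside the clusters, Hoxb5os, Hoxa11os and Hoxd3os1, included none of the 16. Evx1 and Jazf1, near Hoxa, and Nfe2, near Hoxc, exceeded the floor on 3, 4 and 0 arrays. None of the 26 was past the limma threshold in KO cells at either day, and their median differences were -0.04 and -0.06, with all genes at 0.01 and 0.01. Over all genes 0.621% and 3.09% were past it at day 4 and day 12, so a count of 0 does not set this list apart. Another 20 homeobox genes of the antennapedia type, outside the clusters, also held 0 genes above the median on all arrays and 0 called. At these shares 0 called among 20 does not set that list apart either.

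**Figure D5:**
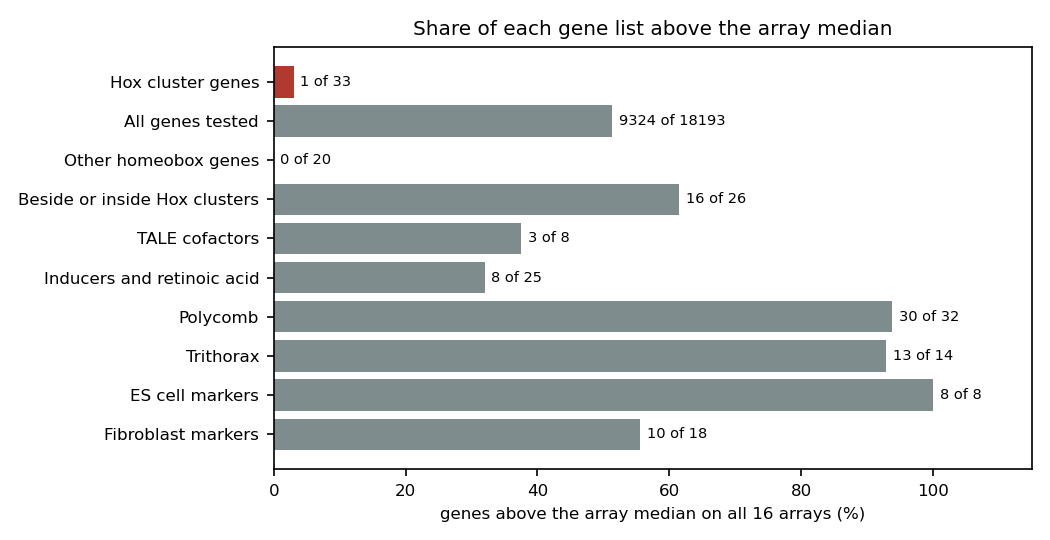
Share of each gene list, in percent, whose genes lay above the array median on all 16 arrays, with the counts beside the bars. The Hox bar, 1 of 33, and that of other homeobox genes, 0 of 20, are short, while 30 of 32 Polycomb and 13 of 14 Trithorax genes lay above the median.

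Of 8 measured TALE homeodomain cofactors, proteins that bind DNA together with Hox proteins, Pbx2, Pbx3 and Pknox1 were above the median on all arrays, and 0 were called at either day. With 0.621% and 3.09% of all genes called at day 4 and day 12, a count of 0 in so short a list does not set it apart. Of 32 Polycomb genes, which encode the repressors of the clusters, Phc2, a subunit of PRC1, rose at both days, from 335 ± 77.3 to 643 ± 73.3 at day 4 and from 467 ± 111 to 864 ± 109 at day 12 (SD, n = 4; adjusted p 0.0468 and 0.0241 in limma). Ezh1, a PRC2 methyltransferase, fell at day 12, from 987 ± 78.0 to 643 ± 119 (adjusted p 0.0249 in limma), and the other Polycomb genes were not called. The list medians were -0.03 and -0.09. Of 14 Trithorax group genes and H3K27 demethylases, which counteract Polycomb, 0 were called, with medians of -0.05 and -0.23, and the list is too short for that count to differ from the same background.

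Of 25 inducers of Hox genes and members of the retinoic acid pathway, 1 was higher in KO cells at day 4 and 3 were at day 12, 0 were lower, and the list medians were 0.02 and 0.22. Over all genes 0.621% and 3.09% were called at these days. Crabp1, which binds retinoic acid in the cytoplasm, rose from 437 ± 46.4 to 1301 ± 53.8 at day 4 and from 509 ± 136 to 1624 ± 114 at day 12 (SD, n = 4; adjusted p 0.000301 and 7.17e-05 in limma). Stra8, a retinoic acid target of meiotic germ cells, rose at day 12 from 138 ± 26.8 to 922 ± 226 (adjusted p 2.65e-05 in limma). Cdx2, a direct activator of Hox genes, read 3.39 to 12.3 in control and 12.0 to 76.0 in KO cells at day 12 (adjusted p 0.0103 in limma), the higher in KO cells in 4 of 4 pairs. All 4 control arrays were under the floor, so no fold is given. In untreated cells Cdx2 was lower at day 12 than at day 4, at 42.5 ± 5.79 on day 4, and Cyp26a1, which degrades retinoic acid, was higher, from 56.0 ± 32.8 to 549 ± 117 (adjusted p 0.0142 and 0.013 in limma).

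Markers of other cell types were read on the same arrays. The summed intensity of 9 markers of primitive and visceral endoderm was 782 to 1731 in control and 593 to 1573 in KO cells at day 4, and 5511 to 8745 and 10740 to 17290 at day 12. In untreated cells 5 of the 9 were higher at day 12 than at day 4, and in KO cells at day 12 Gata6 and Amn were above control by 0.98 ± 0.24 and 1.08 ± 0.20 on the log2 scale (adjusted p 0.0483 and 0.0115 in limma). Over all genes 0.995% were called between the untreated days and 3.09% between KO and control cells at day 12. The 18 fibroblast markers summed to 7841 to 9836, 8671 to 9994, 9144 to 10300 and 9653 to 12120 in control and KO cells at day 4 and at day 12, with 10 of the 18 above the median on all arrays. Of the 18, Dcn and Fap were the 2 that exceeded the floor on fewer than 8 arrays, and the median difference between KO and control cells over the list was 0.06 at day 4 and 0.33 at day 12, with 0 called. With 0.621% and 3.09% of all genes called at these days, a count of 0 among 18 does not set the list apart. The summed Hox intensity ran from 1133 to 1651 and from 1513 to 1582 at day 4, and from 1331 to 1708 and from 1679 to 1923 at day 12. The part of these cell types in the Hoxd8 and Hoxd13 values was not tested, and in bulk RNA fewer cells of a type and less RNA per cell cannot be told apart.

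The genes whose log2 values over the 16 arrays were most like those of the brightest Hox genes were found among 14386 genes with a mean above the floor. For Hoxa5 they were 4930555G07Rik, Themis3 and Zfp869, with Pearson's r of 0.82, 0.78 and 0.76. For Hoxa9 they were Mmp10, Spi1 and Defa3, with 0.88, 0.87 and 0.86, and for Hoxa3 Zc3h12d, Mc3r and Cbx3, with 0.78, 0.77 and 0.75. Arrays share clone and day, these were the best of many candidates, and the values are a description.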

How the data were processed

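Per the labels, total RNA was extracted with Trizol and labelled as biotin cRNA for Affymetrix mouse 430 arrays. The deposited values are linear intensity, 1 per probe set and array (45101 probe sets), which the authors made with Affymetrix Expression Console and RMA, per the submitters' processing notes. Versions and settings are not given in the sources used here. RMA values are usually on a log2 scale and these are not, so the steps that gave them are uncertain. The series text names the 430A 2.0 array, which holds fewer probe sets than the deposited table. Scanner files were not used here, and the number of arrays limits the precision.

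Values were log2-transformed with no offset, since the file held linear values where log2 had been assumed. Control probe sets (64) and those with several symbols (932) or none (9160) were left out. limma 3.58.1 (R 4.3.3) fitted group and clone to all 16 arrays, with Benjamini-Hochberg adjustment over 18195 entries (18193 genes and 2 Rybp probe sets) and a threshold of 0.05. The clone contrasts were fitted with separate means for every combination of clone and group. The fits were tested on simulated data, with arrays drawn independently and changes placed only in genes with a mean log2 above 8. The median of the Hox means was 4.52, so that test does not cover changes at the level of most Hox genes. Errors are SE for log2 differences and SD for intensities.

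The members and gene lists were chosen with earlier results of these data known. Genes given by array were the 10 Hox genes with the highest means, any called, and the 3 with the largest floored difference at day 4, at day 12 and between untreated days. After group and clone were fitted, the residuals of same-numbered control and KO arrays of a clone and day correlated in all 8 pairs, at 0.126 to 0.612 over 10850 genes. The fit held no term for clone by day, and arrays of unlike number were not compared. Whether the numbers pair the arrays was therefore not tested. Statements that all 4 pairs of a gene went 1 way are a description, and the share of all genes that did so is not given. Between the days, arrays of like clone, number and treatment gave -0.282 to 0.096.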

Additional observations from a re-analysis of the deposited data

Results flagged for a closer look

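In 52 groups of 4 arrays (13 Hox genes named by rule), 4 held an array whose gap to the nearest other array exceeded Dixon's 95% critical share of the group's range. About 1 in 20 groups does so by chance. Hoxa11 in KO cells at day 4 was lowest in clone 15 replicate 1, at 20.5, the nearest array reading 65.4. Hoxb4 in KO cells at day 4 was highest in clone 15 replicate 2, at 79.5, the nearest reading 48.0. Hoxc9 in control cells at day 4 was highest in clone 15 replicate 1, at 144, the nearest reading 29.9. Hoxa2 in KO cells at day 4 was highest in clone 15 replicate 1, at 18, the nearest reading 5.40, and both lie under the floor.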

How the results depend on the processing

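No alternative gave a called Hox gene in limma. The count was 0 of the Hox genes tested in KO against control at day 4 and day 12 under 28 alternatives each. It was 0 in the other 5 contrasts under 22 to 25 each. The floor left 31 of the 33 genes to test, and the filter, which kept genes with a mean above the floor, left 12. The alternatives were the floor, an offset of 16, a trended and robust variance, a filter on dim genes, adjustment over every named probe set, no clone term, and single days, clones, replicate numbers or arrays left out where they applied. Over all entries, KO against control gave 0 called at both days in clone 15 alone and in arrays of either number alone. Clone 10 alone gave 5 at day 4 and 37 at day 12. Both interaction contrasts gave 0 or 1 called entries under every alternative. A Hox count of 0 in these fits therefore says nothing particular to Hox genes. With the replicate block, which pairs control and KO arrays of a clone, day and number, the count of Hox genes was 0 as well, while the count over all entries went from 114 to 178 at day 4 and from 563 to 1479 at day 12. The lowest adjusted p over all alternatives was 0.171 at day 4 (Hoxa2, without the first KO array of clone 10 at day 12), 0.0998 at day 12 (Hoxb13, with the block) and 0.427 for the interaction, and 0.11, 0.066, 0.0569 and 0.0614 in the remaining contrasts. Leaving out single arrays moved the day 12 difference of Hoxd8 between 0.93 and 1.34, with an adjusted p of 0.101 to 0.368, that of Hoxd13 between 0.75 and 1.19 (0.199 to 0.466) and that of Hoxc9 between 0.78 and 1.71 (0.168 to 0.696). With the floor at the array median, 25 genes at day 4 and 24 at day 12 had no difference left, and the highest at day 12 was 0.25 for Hoxd13. Over the 13 genes given by array, 677 of the log2 values under an alternative kept their direction, and 47 uncalled ones changed sign, mostly at day 4.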

Other observations

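The lists of other embryonic lineages were measured beside the Hox genes. Of 7 mesoderm genes and 7 neural and neural crest genes, 0 were called in KO cells at either day, with median differences of 0.15 and 0.24 at day 4 and of 0.24 and 0.02 at day 12. Over all genes 0.621% were called at day 4 and 3.09% at day 12, so a count of 0 among 7 does not set these lists apart. The mesoderm genes summed to 540 to 721 and 581 to 712 in control and KO cells at day 4, and to 638 to 750 and 642 to 835 at day 12. The control and KO ranges overlapped at both days. Of 6 trophoblast genes, 1 was called at day 12, Cdx2 again, and their sum was 2440 to 3030 and 3341 to 3968 in control and KO cells at day 4 and 1969 to 2353 and 2402 to 3069 at day 12. Of the fibroblast genes, Acta2, smooth muscle actin, was higher in untreated cells at day 12 than at day 4, from 1503 ± 157 to 2456 ± 399 (SD, n = 4; adjusted p 0.0233 in limma).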
